A study of Mus musculus with 9 samples.

Results

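The 32 genes described here encode bromodomain proteins outside the Brpf family, the family to which Brd1 (also called Brpf2) belongs. They were taken as a named list, with no measured value in the rule: Brd2, Brd3, Brd7, Brd8, Brd9, Brwd1, Brwd3, Phip, Atad2, Atad2b, Baz1a, Baz1b, Baz2a, Baz2b, Bptf, Cecr2, Crebbp, Ep300, Kat2a, Kat2b, Smarca2, Smarca4, Pbrm1, Taf1, Trim24, Trim28, Trim33, Trim66, Zmynd8, Zmynd11, Ash1l and Kmt2a. Probes matched 29 of the 32 through RefSeq accessions, of 20258 symbols on the array; no probe was matched to Atad2b, Taf1 or Kmt2a. Of the 29, 27 were well above background on at least 2 of the 9 arrays and entered the fits, among 20282 genes tested, a number that counts transcripts named by accession alone. The comparisons ask whether any of these genes was higher where Brd1 was deleted, and how their levels differed between thymocyte populations.

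A bromodomain is a protein module that binds acetylated lysine, mostly on histone tails, so its carriers read the mark that acetyltransferases write. Brd1 itself is a scaffold subunit of the Kat7 and Kat6 acetyltransferase complexes. The listed proteins include transcription co-activators of the BET class (Brd2, Brd3), acetyltransferases (Crebbp, Ep300, Kat2a, Kat2b), the motors and accessory subunits of chromatin remodelling complexes, and TRIM and ZMYND co-repressors. In thymocytes, Smarca4-containing SWI/SNF complexes are known to act in early development and in co-receptor control, and Crebbp and Ep300 as co-activators of lymphoid transcription factors.

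Thymocytes of C57BL/6 mice were sorted by surface CD4, CD8 and TCRβ, and each sorted population was hybridised to 1 one-colour (Cy3) Agilent array. All mice carried Tie2-Cre, controls included; controls were Brd1+/+ and conditional knockout (CKO) mice were Brd1flox/flox. Tie2-Cre is active in endothelium and in haematopoietic progenitors, so deletion is not confined to thymocytes. Double-positive (DP), CD4 single-positive (CD4SP) and CD8 single-positive (CD8SP) cells came from both genotypes at 8 weeks, TCRβ-negative CD4SP cells from the CKO alone at 8 weeks, and CD8SP cells from both genotypes crossed to the OT-I T cell receptor transgene at 14 weeks. The number of animals behind an array is not given in the labels, and every group has 1 array, so no difference between a pair of arrays has a replicate error.

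Every level below is the log2 processed signal of a probe minus the 75th percentile of its array, and every difference is a difference of such levels, CKO minus control unless stated otherwise. A gene is represented by its brightest probe, and the levels of different genes are not compared, since probes differ in brightness. Per array, 21667 to 25489 of the 55537 probes had a signal well above background. All 9 T cell markers checked were well above background on every array. The Brd1 probe was not lower in the CKO (genotype difference 0.45, SE 0.19, limma adjusted p = 0.475); its position relative to the floxed exons was not checked, so it is no test of the deletion. The CD8SP control array is on the slide of the DP and CD4SP arrays, whereas the CD8SP CKO array is on the slide of the OT-I arrays, so the CD8SP pair is the pair in which slide and genotype cannot be told apart. In bulk arrays, fewer cells of a type and less RNA per cell cannot be told apart.

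Upstream sequences were available for 26 of the 32 genes. The 250 bases before the annotated start site are shown for 4 members that the results below turn on, namely Smarca4, Brd3 and Trim28, each lowest in CD4SP control cells, and Smarca2, the member with the smallest p for genotype. The sequences are RefSeq's on GRCm38.p6, 5′ to 3′ on the gene's strand, with matches to the GC box (GGGCGG) and the ETS motif (CCGGAAG) in capitals on either strand, where the reverse complements read CCGCCC and CTTCCGG.
Smarca4, chr9:21615919-21616168, plus strand: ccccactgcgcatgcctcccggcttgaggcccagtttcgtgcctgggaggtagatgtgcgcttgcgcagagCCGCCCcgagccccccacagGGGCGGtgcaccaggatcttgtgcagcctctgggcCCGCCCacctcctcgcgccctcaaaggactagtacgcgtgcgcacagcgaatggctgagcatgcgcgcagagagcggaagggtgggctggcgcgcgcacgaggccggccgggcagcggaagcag
Smarca2, chr19:26604910-26605159, plus strand: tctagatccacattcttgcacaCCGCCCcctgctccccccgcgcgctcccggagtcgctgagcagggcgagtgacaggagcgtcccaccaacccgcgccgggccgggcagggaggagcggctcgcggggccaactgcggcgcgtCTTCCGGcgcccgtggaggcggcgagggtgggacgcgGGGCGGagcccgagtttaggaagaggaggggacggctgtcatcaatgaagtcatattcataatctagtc
Brd3, chr2:27475399-27475648, minus strand: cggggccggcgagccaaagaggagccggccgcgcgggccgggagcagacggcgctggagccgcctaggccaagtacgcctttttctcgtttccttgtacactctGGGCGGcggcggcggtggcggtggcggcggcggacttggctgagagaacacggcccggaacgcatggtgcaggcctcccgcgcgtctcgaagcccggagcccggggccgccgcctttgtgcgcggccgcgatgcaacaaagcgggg
Trim28, chr7:13023902-13024151, plus strand: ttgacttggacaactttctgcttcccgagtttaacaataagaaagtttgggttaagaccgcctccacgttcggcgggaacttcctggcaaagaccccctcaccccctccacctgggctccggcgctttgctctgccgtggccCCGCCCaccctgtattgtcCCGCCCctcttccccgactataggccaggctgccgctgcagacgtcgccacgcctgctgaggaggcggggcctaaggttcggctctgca
The GC box was found in 17 of the 26 upstream sequences (65.4%) against 32.9% of 27025 sequences of the same length, and all 4 shown hold it, with 3 matches in Smarca4, 2 in Smarca2, 1 in Brd3 and 2 in Trim28. The CCAAT box was found in 7 of 26 (26.9%, all genes 34.5%), the ETS motif in 2 (7.69%, all genes 7.05%) and TTTGAA, the core of the cell-cycle homology region, in 1 (3.85%, all genes 16.3%). The E2F motif TTTCCCGC was found in Brd7 and Phip (7.69%, all genes 0.929%), and neither TTTGGCGC (all genes 0.437%) nor the NRF1 motif (all genes 0.781%) in any of the 26. The motifs were searched on both strands and overlap in no letters shown; a match is a description of the letters only.

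**Figure D1:**
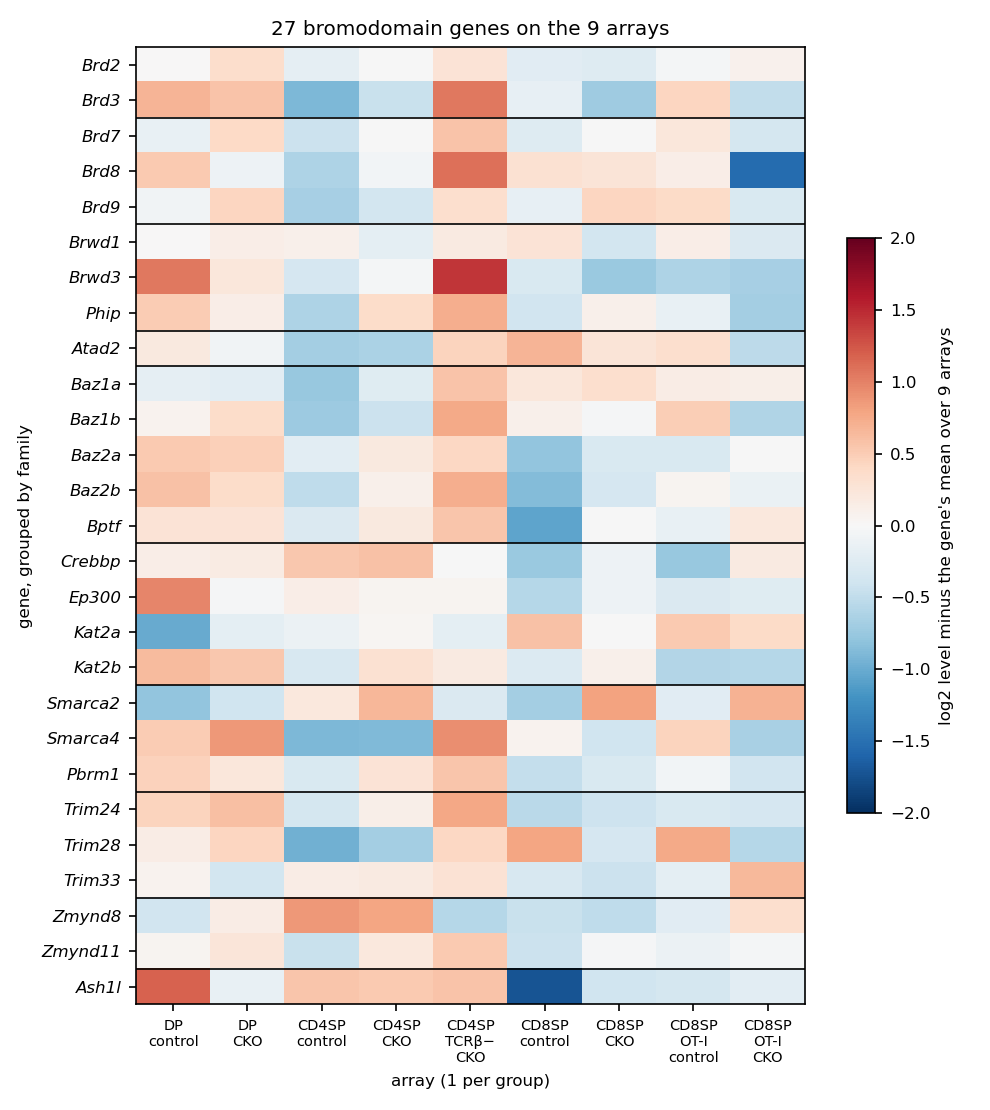
Heat map of the 27 bromodomain genes (rows, grouped by family) on the 9 arrays (columns), coloured by the log2 level minus the gene's own mean over the arrays. The TCRβ-negative CKO column holds the highest level of 13 of the 27 genes, and the CD4SP control column the lowest level of 9.

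By the brightest probe of each gene, the range over the 9 arrays was 0.60 for Brd2, the smallest, and 2.91 for Ash1l, the largest. The median range over the 27 genes was 1.41. The highest of the 9 levels lay on the TCRβ-negative CKO array for 13 of the 27 genes, against 8.04% of all genes tested. The lowest level lay on the CD4SP control array for 9 genes (all genes 12.3%) and on the CD8SP control array for 7 (all genes 14%).

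Across the 4 populations with both genotypes, no bromodomain gene passed the test for a genotype difference. In the limma fit of population and genotype over the 9 arrays, 0 of 27 rose (0.0394% of all genes did) and 0 fell (0.242%), and 1 gene, Smarca2, had an unadjusted p under 0.05, against 10.9% of all genes. The median difference over the 27 genes was 0.14, beside -0.04 over all genes tested, and 18 of the 27 estimates were positive, beside 45.3% of all genes. The smallest adjusted p among the members was 0.35. The error here is the spread of the difference between populations, and the half-width of the 95% confidence interval was 0.60 in the median gene and 0.44 to 1.04 over all 27. For 22 of the 27 genes that interval lay wholly within a 2-fold change in either direction. It reached past a 2-fold increase for Smarca2, Bptf and Ash1l, and past a 2-fold decrease for Trim28, Brd8 and Ash1l.

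Direction was shared by all 4 pairs in few genes. By the brightest probes, Smarca2, Crebbp and Zmynd11 were higher in the CKO array of every pair, 3 of 27 where 10.6% of all genes were. Lower in every pair were 0 of 27, where 8.32% of all genes were. Under other scalings and background corrections the first count was 2 to 4 and the second 0 or 1. Second probes of Zmynd8 and Trim24, well above background on all 9 arrays, were also higher in every pair, where their brightest probes were not. In the DP, CD4SP, CD8SP and OT-I pairs they gave 0.51, 0.16, 0.84 and 0.24 for Zmynd8, and 0.04, 0.62, 0.12 and 0.15 for Trim24.

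**Figure D2:**
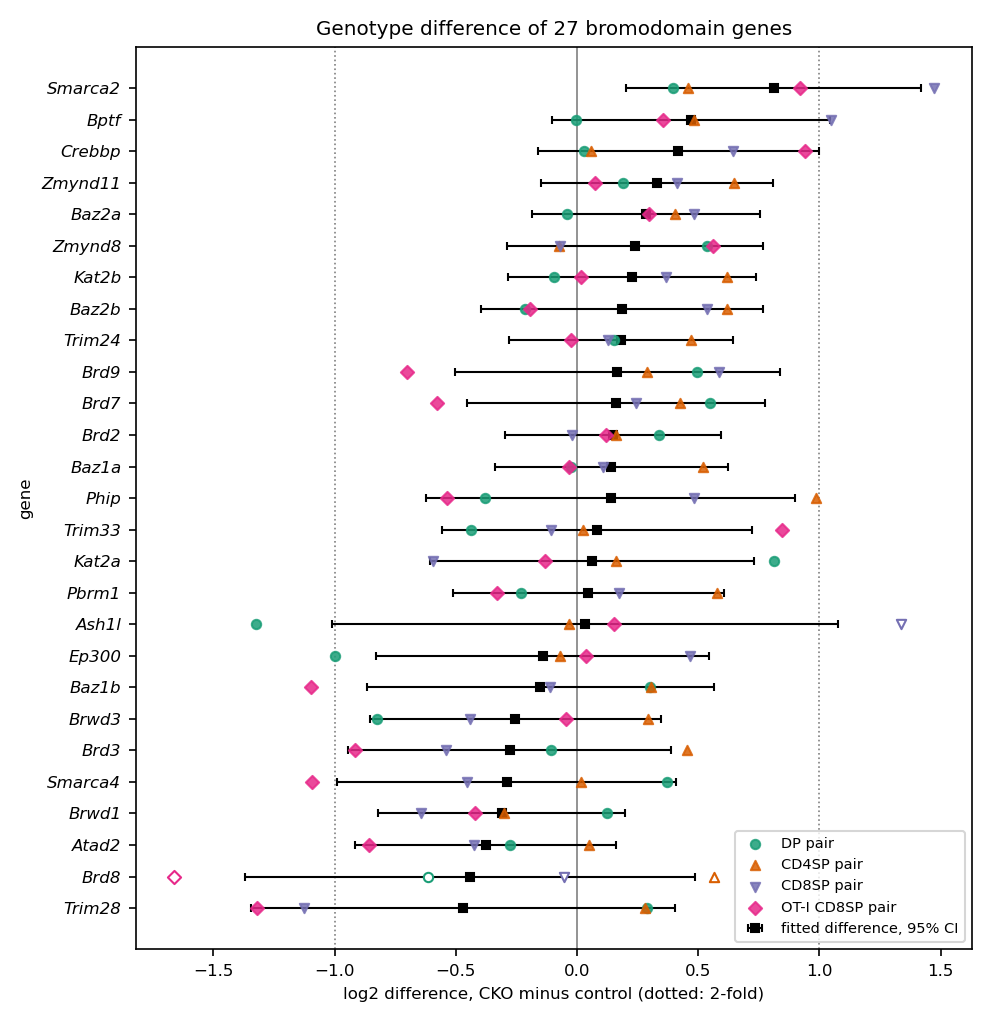
Log2 difference, CKO minus control, of each of the 27 genes in the 4 pairs of arrays (coloured points, open where an array of the pair was not well above background) and as the fitted genotype difference with its 95% confidence interval (black squares). Smarca2 at 0.81 is the one gene whose interval, from 0.20 to 1.42, lies wholly on one side of 0. The OT-I points of Trim28 (-1.32), Baz1b (-1.10) and Smarca4 (-1.10) lie left of the 2-fold line, as does that of Brd8, for which neither array of the pair was well above background.

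Smarca2 and Smarca4 are the alternative ATPase motors of the SWI/SNF remodelling complex. Their genotype estimates, neither past the test, were of opposite sign by the brightest Smarca4 probe but not by its second. The Smarca2 level was -0.84 in control and -0.45 in CKO DP cells, 0.16 and 0.62 in CD4SP cells, -0.72 and 0.75 in CD8SP cells, -0.27 and 0.65 in OT-I CD8SP cells, and -0.34 in TCRβ-negative CD4SP cells. The CKO value was above the control value in every pair, by 0.40, 0.46, 1.47 and 0.92, although the control CD4SP value lay above the CKO DP value. The fitted difference was 0.81 (SE 0.25, 95% interval 0.20 to 1.42) with an unadjusted p of 0.0174 and an adjusted p of 0.35 by limma. It was 0.59 without the CD8SP pair (adjusted p = 0.938), which is also its value with the slide as a block. Smarca2 was higher in every pair under each of the 4 scalings and background corrections.

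The Smarca4 level was 6.69 in control and 7.06 in CKO DP cells, 5.29 and 5.31 in CD4SP cells, 6.25 and 5.80 in CD8SP cells, 6.64 and 5.54 in OT-I CD8SP cells, and 7.12 in TCRβ-negative CD4SP cells. The lowest values were those of both CD4SP arrays and the OT-I CKO array, and the highest those of the DP CKO and TCRβ-negative arrays. Smarca4 was 1.10 lower in the CKO of the OT-I pair and 0.45 lower in the CD8SP pair, but 0.37 higher in the DP pair, and the fitted genotype difference was -0.29 (SE 0.28, limma adjusted p = 0.70). A second Smarca4 probe gave 0.06 for the fit and -0.64 in the OT-I pair, short of 2-fold.

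Pbrm1, the polybromo subunit, ranged from 1.42 in CD8SP control to 2.44 in TCRβ-negative cells, with a genotype difference of 0.05 (SE 0.23). A second Pbrm1 probe gave 0.18 for the fit. Brd7 and Brd9, subunits of the PBAF and the non-canonical BAF forms of the complex, had differences of 0.16 (SE 0.25) and 0.17 (SE 0.27); both were higher in the CKO of the DP, CD4SP and CD8SP pairs and lower in the OT-I pair, by 0.58 and 0.70. Of 21 SWI/SNF subunits without a bromodomain, 18 were tested, and 0 rose and 0 fell by limma (0 with an unadjusted p under 0.05), with a median of -0.12. Among those 18, 4 were more than 2-fold lower in the CKO of the OT-I pair (all genes 13.9%). In TCRβ-negative cells, 5 of the 18 were more than 2-fold higher than in ordinary CD4SP cells of the CKO (all genes 9.89%).

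Brd2 and Brd3 are BET co-activators that bind acetylated histones at active promoters. Brd2 ranged only from 5.53 to 6.13 by its brightest probe. A dimmer Brd2 probe ran from -0.10 in OT-I control to 0.87 in CKO DP cells. That probe gave 0.73 in the OT-I pair, where the brightest gave 0.12. The Brd3 level was 2.92 in control and 2.81 in CKO DP cells, 1.34 and 1.80 in CD4SP cells, 2.07 and 1.53 in CD8SP cells, 2.67 and 1.75 in OT-I CD8SP cells, and 3.29 in TCRβ-negative cells. Brd3 was thus high in DP and TCRβ-negative cells and lowest in CD4SP control cells. The fitted genotype difference was -0.28 (SE 0.27, limma adjusted p = 0.699), from 0.45 higher in the CD4SP pair to 0.92 lower in the OT-I pair. Its 2 further probes gave 0.02 and 0.08 for the fit and -0.64 and -0.66 in the OT-I pair. Of the 4 genes of P-TEFb and its inhibitor, the elongation kinase that BET proteins recruit, 0 rose and 0 fell with genotype by limma (0 with an unadjusted p under 0.05). Brd8, a subunit of the NuA4 acetyltransferase complex, was well above background on 2 arrays, DP control (-2.63) and TCRβ-negative CKO (-2.04). The other 7 Brd8 signals, from -4.67 to -2.83, were not, so its fitted genotype difference of -0.44 (SE 0.38) rests mostly on signals at background. The 12 other NuA4 subunits were all tested, and 0 rose and 0 fell with genotype by limma (0 with an unadjusted p under 0.05).

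The Baz proteins, Bptf and Cecr2 are partners of the ISWI motors Smarca1 and Smarca5, which space nucleosomes. The Baz1b level, that of the Williams syndrome transcription factor, was 0.62 in control and 0.92 in CKO DP cells, -0.18 and 0.12 in CD4SP cells, 0.65 and 0.53 in CD8SP cells, 1.04 and -0.05 in OT-I CD8SP cells, and 1.31 in TCRβ-negative cells. The CKO was higher by 0.30 in both the DP and CD4SP pairs and lower by 1.10 in the OT-I pair, and the fitted difference was -0.15 (SE 0.29, limma adjusted p = 0.846). A dimmer Baz1b probe was well above background on 4 arrays only, and its signal on the OT-I control array (-3.02) lay below the lowest detected level of that array (-2.94), so it does not bear on the direction in that pair. Bptf, the largest NURF subunit, ranged from 3.26 in CD8SP control to 4.86 in TCRβ-negative cells and had a fitted difference of 0.47 (SE 0.23, limma adjusted p = 0.514). Its pair differences were 0.00, 0.48, 1.05 and 0.35, and the CD8SP difference rests on the lowest of the 9 values, that of the CD8SP control. Baz1a, Baz2a and Baz2b had fitted differences of 0.14, 0.29 and 0.19, none past the test. The other Baz1a probes, both well above background on all 9 arrays, gave 0.41 and 0.36 for the fit. They gave 0.77 and 0.55 in the CD8SP pair, where the brightest gave 0.11. In the OT-I pair they gave 0.99 and 0.74, where the brightest gave -0.03. Of 7 ISWI motors and partners, 6 were tested and 0 rose and 0 fell by limma (0 with an unadjusted p under 0.05). Cecr2 was not well above background on any array.

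Among the acetyltransferases, Crebbp had the largest positive estimate. The Crebbp level was 6.12 in control and 6.15 in CKO DP cells, 6.52 and 6.58 in CD4SP cells, 5.25 and 5.89 in CD8SP cells, 5.23 and 6.18 in OT-I CD8SP cells, and 5.99 in TCRβ-negative cells. Both control CD8SP arrays held the lowest values, and the pairs differed little in DP (0.03) and CD4SP cells (0.06) and more in CD8SP (0.64) and OT-I cells (0.94). The fitted difference was 0.42 (SE 0.24, limma adjusted p = 0.55), and the DP difference was negative, at -0.19, -0.22 and -0.02, under each of the 3 other scalings and background corrections, so Crebbp was not higher in every pair under them. Ep300, the close relative of Crebbp, ranged from -1.47 in CD8SP control to 0.08 in DP control cells and had a fitted difference of -0.14 (SE 0.28). In the DP pair Ep300 was 1.00 lower in the CKO. Kat2a and Kat2b, the alternative acetyltransferases of SAGA and ATAC, had fitted differences of 0.06 (SE 0.27) and 0.23 (SE 0.21). Kat2a was 0.81 higher in the CKO of the DP pair and 0.60 lower in that of the CD8SP pair. Of 17 SAGA and ATAC subunits, 16 were tested, and 0 rose and 0 fell by limma (0 with an unadjusted p under 0.05).

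Trim28 (Kap1), the co-repressor of KRAB zinc-finger proteins, had the largest negative estimate. The Trim28 level was 5.37 in control and 5.66 in CKO DP cells, 4.26 and 4.54 in CD4SP cells, 6.01 and 4.89 in CD8SP cells, 5.98 and 4.66 in OT-I CD8SP cells, and 5.63 in TCRβ-negative cells. The CKO was 0.29 higher in DP and 0.28 higher in CD4SP cells, and 1.13 lower in CD8SP and 1.32 lower in OT-I cells. The fitted difference over the 4 pairs was -0.47 (SE 0.36, limma adjusted p = 0.626), and whether the CD8SP and OT-I pairs differ from the others was not tested. Trim24 and Trim33, which form complexes with Trim28, had fitted differences of 0.18 (SE 0.19) and 0.08 (SE 0.26). A second Trim24 probe gave 0.23 (SE 0.20) for the fit. Trim33 was 0.84 higher in the CKO of the OT-I pair and 0.44 lower in that of the DP pair. Trim66 was not well above background on any array.

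Zmynd11, a reader of histone H3 lysine methylation in gene bodies, was at 1.92 in control and 2.11 in CKO DP cells, 1.42 and 2.07 in CD4SP cells, 1.43 and 1.85 in CD8SP cells, 1.75 and 1.82 in OT-I CD8SP cells, and 2.39 in TCRβ-negative cells. The CKO was higher in each pair, by 0.08 to 0.65, and the fitted difference was 0.33 (SE 0.20, limma adjusted p = 0.559); the DP difference turned to -0.03 with another scaling. Zmynd8, which binds acetylated histones and recruits repressive complexes, had a fitted difference of 0.24 (SE 0.22). A second Zmynd8 probe gave 0.44 (SE 0.21) for the fit.

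The Ash1l level, that of a histone methyltransferase, was 0.12 in control and -1.20 in CKO DP cells, -0.51 and -0.54 in CD4SP cells, -2.79 and -1.46 in CD8SP cells, -1.42 and -1.27 in OT-I CD8SP cells, and -0.50 in TCRβ-negative cells. The highest and the lowest values were both from control arrays. The CD8SP control value was not well above background, so the CKO was at least 1.16 higher there, while in the DP pair it was 1.32 lower. With a normexp background in place of the scanner's, these differences were 0.29 and -0.76. The fitted difference was 0.03 (SE 0.42, limma adjusted p = 0.979), with the widest interval of the 27 genes. Of the 6 other subunits of the Kmt2a complex, whose catalytic member has no matched probe, 0 rose and 0 fell by limma (0 with an unadjusted p under 0.05), and likewise of 13 TFIID partners of Taf1 (0 with an unadjusted p under 0.05).

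Brwd3, a ubiquitin ligase receptor with bromodomains, was at 0.44 in control and -0.38 in CKO DP cells, -0.94 and -0.65 in CD4SP cells, -0.92 and -1.36 in CD8SP cells, -1.23 and -1.28 in OT-I CD8SP cells, and 0.81 in TCRβ-negative cells. DP control and TCRβ-negative cells were thus the only positive values, and the fitted genotype difference was -0.26 (SE 0.24, limma adjusted p = 0.693). Brwd1, its relative, had a fitted difference of -0.31 (SE 0.21) by its brightest probe; 2 probes of other Brwd1 transcripts gave 0.16 and -0.17. Phip had 0.14 (SE 0.31), with the largest CD4SP pair difference of the 27 genes, 0.99. Atad2, an ATPase linked to S phase chromatin, ranged from 0.65 in CD4SP control to 2.02 in CD8SP control cells, with a fitted difference of -0.38 (SE 0.22, limma adjusted p = 0.556).

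Taken pair by pair, the genotype differences of the members were not alike. In DP cells 0 of 27 genes were more than 2-fold higher in the CKO (all genes 3.94%) and 1, Ash1l, was more than 2-fold lower (all genes 5.34%). The members' median was 0.00, beside 0.15 over all genes compared, and 13 of the 27 were higher, beside 62.2% of all genes. Of 5 granulocyte markers compared in the DP pair, 4 were more than 2-fold lower in the CKO (summed level 15.2 in control, 4.78 in CKO). In the other direction, 2 of 8 myeloid and 2 of 4 erythroid markers compared were more than 2-fold higher. In CD4SP cells, of 26 genes compared, 0 were more than 2-fold higher (all genes 3.49%) and 0 lower (all genes 5.32%). The median there was 0.30, beside -0.04 over all genes, and 22 of the 26 were higher, beside 45.8% of all genes; 22 to 24 of the 27 tested genes were higher under each of the 4 scalings and background corrections. In the same pair the 5 NK cell markers differed, 4 of them being well above background in the control array and 0 in the CKO array (summed level 7.59 and 0.17), and 3 of 8 myeloid markers were more than 2-fold lower in the CKO. Genes of the DP stage differed as well, 6 of 7 being higher in the CKO of the CD4SP pair and 4 more than 2-fold higher, with 1 more than 2-fold lower and a median of 1.31. The part of these lists in the members' values was not tested.

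In CD8SP cells 3 of 26 genes were more than 2-fold higher in the CKO (all genes 6.77%), Smarca2, Ash1l and Bptf, and 1, Trim28, was more than 2-fold lower (all genes 9.28%). The members' median was 0.15, beside -0.13 over all genes, and 15 of the 26 were higher, beside 41% of all genes. In OT-I CD8SP cells 0 of 26 were more than 2-fold higher (all genes 8.53%) and 3, Trim28, Baz1b and Smarca4, were more than 2-fold lower (all genes 13.9%), followed by Brd3 (0.92 lower) and Atad2 (0.86 lower). The median was -0.04, beside -0.08 over all genes, and 11 of the 26 were higher, beside 44.8% of all genes. When arrays were scaled on the 75th percentile over only the probes well above background on all 9, the median of all genes moved from 0.15 to -0.07 in the DP pair, from -0.13 to 0.01 in the CD8SP pair and from -0.08 to 0.19 in the OT-I pair, and the members' medians became -0.22, 0.29 and 0.24.

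Cell-cycle transcripts differed in the same pairs. Of 24 proliferation genes, 0 were past 2-fold in the DP and CD4SP pairs, 17 were more than 2-fold lower in the CKO of the CD8SP pair and 24 of 24 in that of the OT-I pair, with median differences of -0.12, 0.00, -1.13 and -3.26. The median level of the list was 5.11 in control and 4.87 in CKO DP cells, 2.57 and 2.72 in CD4SP cells, 5.77 and 4.35 in CD8SP cells, 5.76 and 2.78 in OT-I CD8SP cells, and 5.67 in TCRβ-negative cells. The 3 lowest of these levels, on both CD4SP arrays and the OT-I CKO array, were also the arrays of the 3 lowest Smarca4 levels. Smarca4 was named after its values were seen. Of the 27 members, 9 were lowest on the CD4SP control array (all genes 12.3%), where the proliferation median was lowest. Another 7 were lowest on the CD8SP control array (all genes 14%), where that median was highest. All 7 genes of the DP stage were well above background in OT-I control cells and 6 in OT-I CKO cells, where 6 of 7 were more than 2-fold lower. The part of cell-cycle state or stage in the members' differences was not tested.

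**Figure D3:**
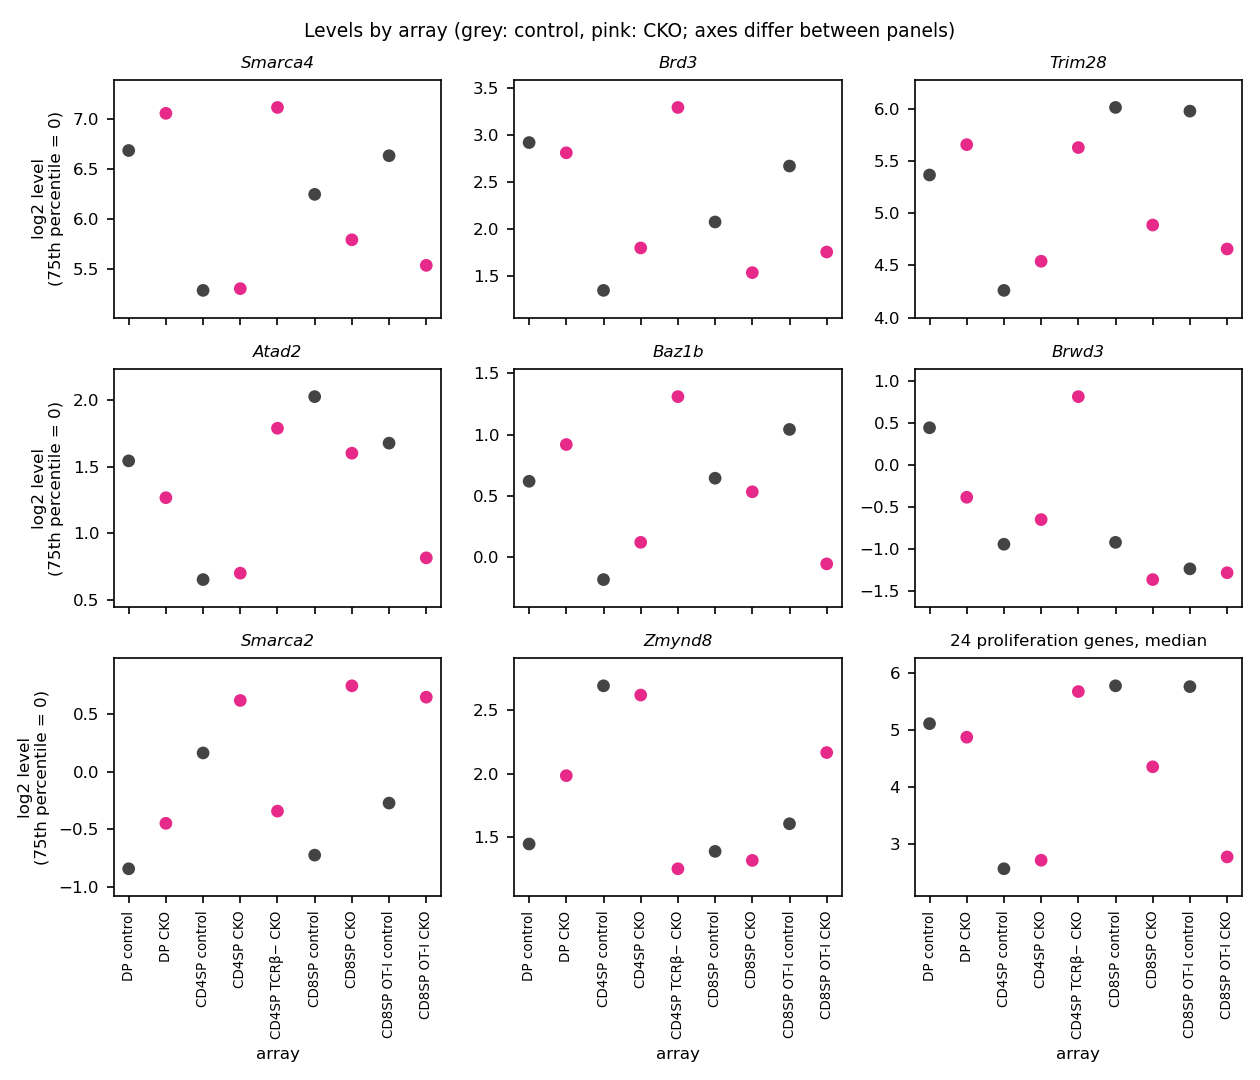
Log2 levels on the 9 arrays (x axis, 1 point per array, grey for control and pink for CKO) of 8 bromodomain genes and, last, the median level of 24 proliferation genes, each panel on its own y axis. Smarca4, Brd3, Trim28, Atad2 and Baz1b have their lowest value in CD4SP control cells, where the proliferation median is lowest at 2.57, whereas Zmynd8 has its highest value there.

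Between populations, too, no member passed the test. From DP to CD4SP cells, fitted over both genotypes with limma, 0 of 27 rose (all genes 2.16%) and 0 fell (all genes 0.922%), and 4 had an unadjusted p under 0.05, against 17.7% of all genes. The members' median was -0.38, beside 0.00 over all genes, and 21 of the 27 estimates were negative. The 4 genes, named after their values were seen, were Smarca4 (-1.57, SE 0.40, adjusted p = 0.117), Brd3 (-1.30, SE 0.38, adjusted p = 0.163), Zmynd8 (0.94, SE 0.30, adjusted p = 0.192) and Smarca2 (1.04, SE 0.35, adjusted p = 0.207). Both CD4SP arrays lay below both DP arrays for 14 genes (all genes 26%) and above them for 5 (all genes 24.4%). The 2 Smarca4 probes (-1.57 and -1.76) and the 3 Brd3 probes (-1.30, -1.14 and -1.30) gave like values, whereas the second Zmynd8 probe gave 0.18. The second Pbrm1 probe gave -1.09, where the brightest gave -0.36. The proliferation genes had a median of -2.30 in this comparison, 0 of 24 being positive, and 0 of the 24 passed the test.

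From DP to CD8SP cells 0 of 27 rose (all genes 2.42%) and 0 fell (all genes 1.04%) by limma, and 6 had an unadjusted p under 0.05, all lower in CD8SP cells, against 20.9% of all genes. The largest were Ash1l (-1.58), Brwd3 (-1.17), Baz2b (-1.07), Brd3 (-1.06), Baz2a (-1.05, SE 0.27, adjusted p = 0.103) and Trim24 (-1.003, SE 0.27, adjusted p = 0.108). The Ash1l value rested mostly on the control arrays (-2.91 as measured), where the CD8SP signal was not well above background. Between the CKO arrays its difference was -0.25. With a normexp background in place of the scanner's, Baz2a (-0.83, adjusted p = 0.0443) and Trim24 (-0.97, adjusted p = 0.0367) passed. Baz2a, a subunit of the nucleolar remodelling complex, was at 1.32 and 1.27 in DP cells and at 0.01 and 0.49 in CD8SP cells, control and CKO, so the groups did not overlap. Trim24 was at 2.59 and 2.75 in DP cells and at 1.60 and 1.73 in CD8SP cells, and its second probe gave -1.32 for the contrast. The members' median was -0.42, beside 0.03 over all genes, and both CD8SP arrays lay below both DP arrays for 16 genes (all genes 22.6%) and above them for 3 (all genes 27.4%), Atad2, Baz1a and Kat2a. The proliferation median in this comparison was 0.24.

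Between the single-positive populations, 0 of 27 were higher in CD8SP cells (all genes 0.261%) and 0 lower (all genes 0.128%) at an adjusted p below 0.05 by limma, and 5 had an unadjusted p under 0.05, against 13.3% of all genes. Zmynd8 (-1.30, SE 0.30, adjusted p = 0.235) and Crebbp (-0.98, SE 0.33, adjusted p = 0.336) were lower in CD8SP than in CD4SP cells, Atad2 (1.13, SE 0.31, adjusted p = 0.29) and Baz1a (0.78, SE 0.28, adjusted p = 0.346) were higher, and Ash1l (-1.60) rested in part on the CD8SP control signal at background. By its brightest probe the Zmynd8 level was 2.69 and 2.62 in CD4SP cells, control and CKO, and between 1.25 and 2.17 on the other 7 arrays. Both CD4SP arrays thus stood above all others by that probe, but not by the second Zmynd8 probe. The second probe was at 1.52 and 1.68 in CD4SP cells, control and CKO, and at 1.67 in CKO DP cells. It gave -0.74 for the contrast. The other Baz1a probes gave 0.69 and 0.10 for the same contrast, where the brightest gave 0.78. Both CD8SP arrays lay above both CD4SP arrays for 7 members (all genes 29.4%) and below them for 8 (all genes 21.5%); Brd8, 1 of the 7, was not well above background on any of the 4 arrays. The proliferation genes were higher in CD8SP cells in 24 of 24 cases, with a median of 2.39. Between OT-I and polyclonal CD8SP cells, which also differ in age and partly in slide, 0 of 27 were higher (all genes 0.0394%) and 0 lower (all genes 0.197%) by limma, and 0 had an unadjusted p under 0.05, against 6.92% of all genes. Both OT-I arrays lay above both polyclonal CD8SP arrays for 7 members (all genes 16.9%), among them Trim24, Trim33, Baz2a and Zmynd8, and below them for 3 (all genes 9.09%), Brd8, Baz1a and Kat2b. Of these, Brd8 was not well above background on any of the 4 arrays, and the fitted difference of -0.16 for the brightest Baz1a probe stood against 0.30 and 0.16 for its other probes.

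**Figure D4:**
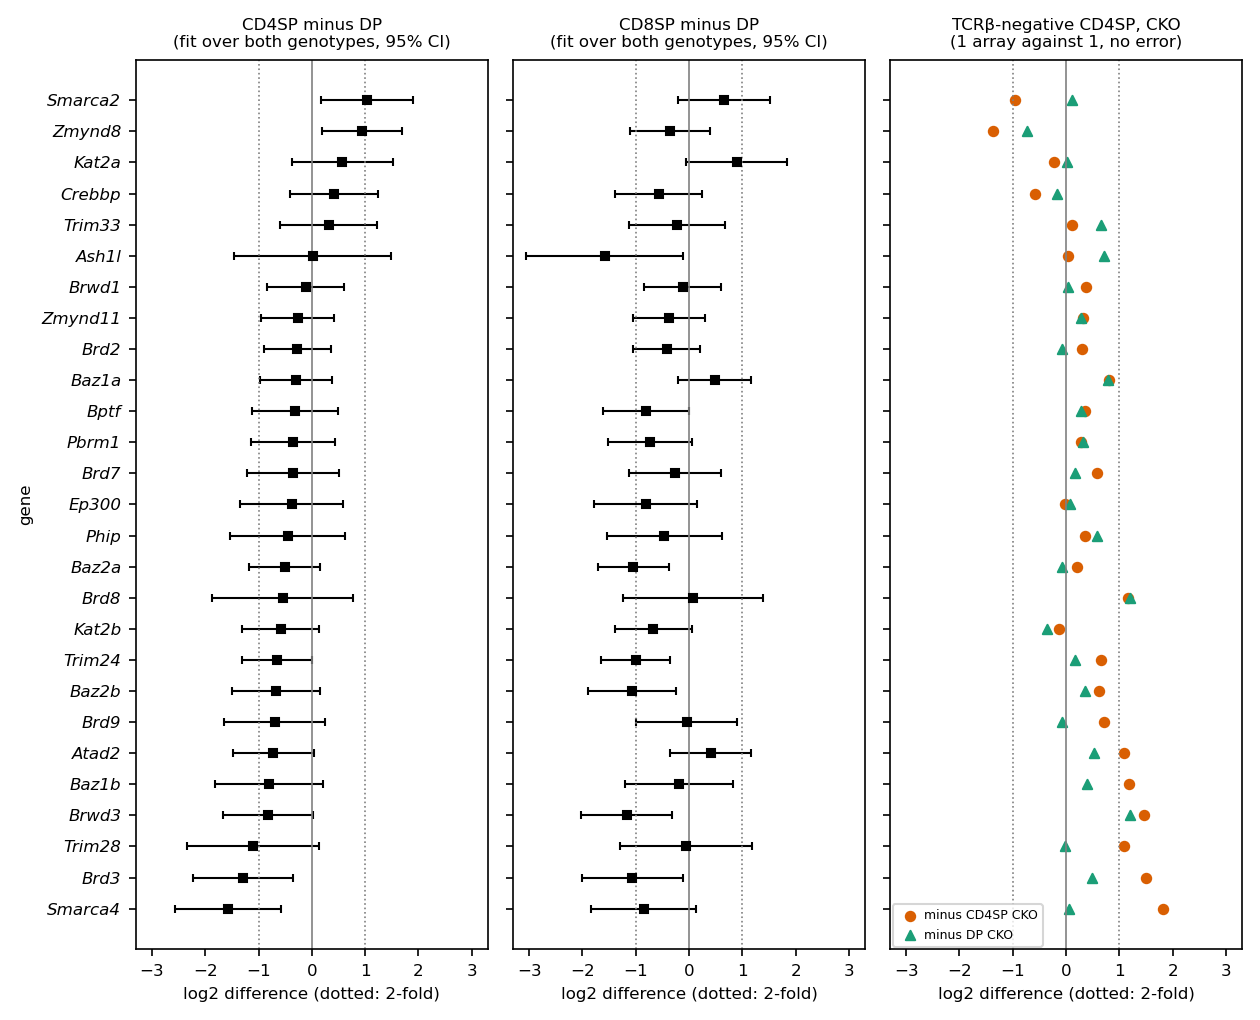
Log2 differences of the 27 genes, ordered by the first panel: CD4SP minus DP and CD8SP minus DP from the fit over both genotypes with 95% confidence intervals, and TCRβ-negative CD4SP cells of the CKO minus CKO CD4SP (circles) and minus CKO DP cells (triangles). Smarca4 at -1.57 and Brd3 at -1.30 lie lowest in the first panel and highest among the circles of the last, at 1.81 and 1.50. The CKO CD4SP array enters the first panel and the circles with opposite sign, so these 2 rankings are not independent.

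CD4SP cells without surface TCRβ, measured in the CKO alone, differed less from DP than from ordinary CD4SP cells in the median member. Against ordinary CD4SP cells of the CKO, 7 of 27 genes were more than 2-fold higher (all genes 9.89%) and 1 more than 2-fold lower (all genes 9.25%). The higher genes were Smarca4 (1.81), Brd3 (1.50), Brwd3 (1.46), Baz1b (1.19), Brd8 (at least 1.16), Trim28 (1.09) and Atad2 (1.09), and the lower gene was Zmynd8 (-1.36); Smarca2 was 0.96 lower. The members' median was 0.36, beside 0.03 over all genes, and 21 of the 27 were higher, beside 51.6% of all genes. Both Smarca4 probes (1.81 and 1.70) passed 2-fold, and the other Brd3 probes lay at the threshold (0.99 and 1.01), whereas the other Zmynd8 probe gave -0.39. The second Pbrm1 probe, at 1.105, passed 2-fold, where the brightest gave 0.28.

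Against DP cells of the CKO, 2 of 27 were more than 2-fold higher (all genes 1.48%), Brwd3 (1.20) and Brd8 (at least 1.20), and 0 lower (all genes 1.93%). In all, 20 of the 27 were higher, beside 48.4% of all genes, with a median of 0.17. The differences of Smarca4 (0.06), Trim28 (-0.03) and Smarca2 (0.11) were small. The median size of the difference, whatever its direction, was 0.28 against DP and 0.59 against CD4SP cells, beside 0.23 and 0.43 over all genes. In these cells 23 of the 24 proliferation genes and 6 of the 7 DP-stage genes were more than 2-fold above ordinary CD4SP cells, with medians of 2.85 and 3.81, and their median differences from DP cells were 0.57 and 0.00. The part of these in the members' values was not tested, and with no control array of TCRβ-negative cells, the population and the genotype cannot be told apart there.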

How the data were processed

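Per the file headers, Agilent Feature Extraction 10.7.1.1 made the deposited intensity of each spot on array design 028005, subtracting background and a spatial trend within the array but not scaling arrays to each other. The series table deposited by the authors holds the same intensity divided by its array's 75th percentile. The label protocol names biotinylated cRNA, whereas the files are those of Cy3 arrays. Outlier spots were left out, and of 55681 probes, 144 whose spots were all outliers on at least 1 array were dropped. RefSeq accessions named the probes. Population and genotype were fitted additively with limma 3.58.1 (R 4.3.3), with 3 residual degrees of freedom, two-sided, and p-values were adjusted by Benjamini-Hochberg over 20282 genes well above background on at least 2 arrays; a call was an adjusted p below 0.05. The fitting step was tested on simulated data. Pairs of arrays were compared without a test, against a 2-fold threshold, among genes well above background on 1 or both; a signal not well above background was set to the higher of its own value and the array's lowest detected level. The members and lists were chosen with earlier results of these data known. Genes given in full were those with 1 sign in all 4 pairs and the largest 3 past 2-fold in each comparison of 2 arrays; others named were chosen after their values were seen. Alternatives were other scalings, a normexp background (offset 50), other probe summaries and filters, the deposited series table, the slide as a block, and leaving out each pair. Arrays of 1 sample per group limit the precision.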

Additional observations from a re-analysis of the deposited data

Results flagged for a closer look

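Ash1l differed in opposite directions in the DP and CD8SP pairs. It was -1.323 in the DP pair and 1.335 in the CD8SP pair as measured (CKO minus control, log2), the latter at least 1.16 because the CD8SP control signal was not well above background. These sizes depend on the background correction. With a normexp background the differences were -0.76 and 0.29, of the same signs but both short of 2-fold. The difference between these pairs was not tested, each rests on 1 array per genotype, and Ash1l has 1 matched probe.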

How the results depend on the processing

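The genotype fit itself pairs the arrays of a population. No replicate numbers link the groups, so no block of replicates could be fitted. The slide was fitted as a block in 1 of the alternatives. The count of members called for genotype was 0 under every alternative run, and so was that for each population contrast except CD8SP minus DP, where normexp gave 2. Of the values for the comparisons under alternatives, 195 stayed within 1.5 times or the spread of the main value and 27 moved. Scaled on probes well above background everywhere, the members' median was -0.58 for CD8SP minus DP and -0.33 for CD8SP minus CD4SP, 3 members were more than 2-fold lower in the DP pair and 0 in the CD8SP pair, 1 was lower and 3 were higher in the OT-I pair, and against CD4SP the TCRβ-negative array had 4 higher and 2 lower. With quantile normalization the CD8SP minus DP median was -0.49, and 2 were lower in the DP pair, 1 higher in the CD4SP pair, 0 lower in the CD8SP pair, and 1 higher and 1 lower in the OT-I pair. With normexp that median was -0.36, 0 were lower in the DP pair, 1 higher and 0 lower in the CD8SP pair, and the TCRβ-negative array had 3 higher than CD4SP and 0 higher than DP cells. With the mean of all probes, 1 was higher in the DP pair, 1 lower in the OT-I pair and 0 lower in TCRβ-negative than CD4SP cells. The series table gave 2 lower in the DP pair. Without a filter the CD8SP minus DP median was -0.38 and 5 were lower in the OT-I pair. All these counts are for the members alone, and scaling also moved the medians of all genes. The shares of all genes under each setting are not given, so a change in the members cannot be told from a change of scale. The Ash1l genotype difference (0.03) reversed to -0.093 with normexp, to -0.40 with the slide as a block and without the CD8SP pair, and to -0.0069 without the OT-I pair. That of Baz1b (-0.15) reversed to 0.16 without the OT-I pair. The cause was not tested. Leaving out a pair gave a genotype median over the members of 0.04 (without CD4SP) to 0.16 (without OT-I), beside 0.14. In each setting that leaves out 1 pair, the lone arrays left carry no replicate error of their own.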

Other observations

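Sp140 and Sp100, bromodomain genes outside the list that are named after their values were seen, had larger genotype estimates than most of its members, and neither passed the test by limma. They belong to 5 other bromodomain genes checked, of which 3 had a positive estimate. The median of those 5 was 0.09, in a range from -0.19 to 0.90. Sp140, a nuclear body protein of immune cells, was higher in the CKO of every pair, by 0.97, 0.69, 1.10 and 0.86 (fitted 0.90, adjusted p = 0.194). Sp100, its relative, was higher by 0.46, 0.65, 0.86 and 1.21 (fitted 0.79, adjusted p = 0.287). Brpf1 and Brpf3, the close relatives of Brd1, had 0.02 (adjusted p = 0.978) and 0.27 (adjusted p = 0.725), and Brpf3 was 1.26 higher in the CKO of the CD4SP pair.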
